A study of Rattus norvegicus with 8 samples.

Results

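The genes described here are the Rab GTPases, the largest family of small GTPases that direct membrane traffic, in SF2 rat dental epithelial cells. Members were all entries of the deposited expression table with a symbol made of Rab, a number and at most a letter and a further digit, at 1 CPM (the read count of a gene scaled to the total of its library) or more in at least 4 of the 8 libraries. The table had 30240 entries, of which 58 had such a symbol, and 34 of these met the level rule. The rule used levels but no difference between conditions. A member could meet it through a single genotype, and Rab31 did so through all 4 Control libraries and 1 of the AmeloD libraries.

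SF2 is an established epithelial line from the cervical loop of the rat lower incisor, the tissue that supplies the enamel-forming ameloblasts. All 8 libraries came from this line and differed in 3 labels. The genotype was AmeloD-overexpressing or Control, where AmeloD, the product of Ascl5, is a transcription factor of dental epithelial cells. The plasmid label was pCMV6 or pCMV6.ODAM, the name ODAM being that of a protein secreted by ameloblasts. The remaining label was N or TGF; the growth factor, its dose and the time of treatment are not stated. There was 1 library for each of the 8 combinations, so 4 libraries shared each level of a label and combinations were not replicated. How AmeloD was overexpressed, how many clones were used and whether the libraries came from separate cultures are likewise not given, so p-values measure the spread between these libraries alone.

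The libraries held 10568146 to 17775226 reads in all, of which 1662973 to 2854134 lay in the deposited table. The 34 Rab genes together had 29877 reads. Ascl5 had 0 reads in all 8 libraries, so this gene could not check the AmeloD label, and Odam had 31 reads in the pCMV6.ODAM libraries against 1 in the pCMV6 libraries. Of the 31, the Control libraries held 10 with N and 17 with TGF and the AmeloD libraries 1 and 3, while the 1 read under pCMV6 was in Control N, so in AmeloD this check of the plasmid label rested on 4 reads. Of 15 epithelial markers 13 were in the table, and their summed level was 1095 to 1189 CPM in AmeloD and 684 to 837 CPM in Control, with Krt18 at 0 reads. In the genotype test described below, 12 of them were tested, with 9 called higher in AmeloD (75%) and 1 lower (8.33%). Of all tested genes 9.07% were called higher and 4.75% lower. Of 7 ameloblast markers 6 were at 0 reads (Amelx, Ambn, Enam, Amtn, Klk4 and Mmp20), and both odontoblast markers, Dspp and Dmp1, were at 0. The 7 fibroblast and mesenchyme markers summed to 17.8 to 27.5 CPM in AmeloD and 34.4 to 64.8 CPM in Control, with Col1a2, Pdgfrb and Thy1 at 0. The 5 leukocyte markers summed to 2.77 to 3.73 CPM in AmeloD and 0.876 to 1.63 CPM in Control, with Csf1r at 0. Only 1 of these 5 met the level rule, and they had 246 reads in all. The 4 endothelial markers overlapped, at 0.593 to 2.05 CPM in AmeloD and 1.01 to 1.95 CPM in Control, with Kdr at 0. The epithelial, fibroblast and leukocyte sums moved with the genotype label, as do the Rab differences below. The part of these sums in the Rab differences was not tested. In bulk RNA, fewer cells of a type and less RNA per cell cannot be told apart.

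Rab proteins switch between a GDP-bound form held in the cytosol and a GTP-bound form on a membrane. Guanine nucleotide exchange factors (GEFs) load GTP, GTPase-activating proteins (GAPs, most with a TBC domain) end the active state, and a prenyl anchor with its carriers lets the protein move on and off membranes. Each Rab marks a compartment and recruits effectors there: Rab1 and Rab2 between endoplasmic reticulum and Golgi, Rab5 on early endosomes, Rab4, Rab11 and Rab25 on recycling endosomes, Rab7 on late endosomes and lysosomes, and Rab3, Rab8, Rab10 and Rab13 on carriers to the cell surface. In the enamel epithelium, secretion of matrix and later uptake of its fragments run through these compartments.

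AmeloD belongs to the basic helix-loop-helix proteins, which as a class bind E-boxes, written CANNTG. Of the 6 members that differed by genotype below, the 4 with a RefSeq promoter are therefore shown as context, on GRCr8, 300 bases around the start of the gene (most of them before it), 5′ to 3′ on the strand of the gene. Capitals mark CANNTG, which reads the same on both strands as a pattern. Their positions are chr6:101257034-101257333 on the minus strand for Rab15, chr10:63581292-63581591 on the plus strand for Rab34, chr9:6720877-6721176 on the plus strand for Rab5a and chr9:112828043-112828342 on the minus strand for Rab31.
Rab15: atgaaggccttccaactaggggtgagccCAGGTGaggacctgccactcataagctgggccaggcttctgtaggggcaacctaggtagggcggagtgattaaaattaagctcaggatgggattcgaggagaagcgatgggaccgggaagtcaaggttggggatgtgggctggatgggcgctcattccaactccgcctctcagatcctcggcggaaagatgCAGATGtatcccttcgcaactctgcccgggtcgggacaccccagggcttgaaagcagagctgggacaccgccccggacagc
Rab34: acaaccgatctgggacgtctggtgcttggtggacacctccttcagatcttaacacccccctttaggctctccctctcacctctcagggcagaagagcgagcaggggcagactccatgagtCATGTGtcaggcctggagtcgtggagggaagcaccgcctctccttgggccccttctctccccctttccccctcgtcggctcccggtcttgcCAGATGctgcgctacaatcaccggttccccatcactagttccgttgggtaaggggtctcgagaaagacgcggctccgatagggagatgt
Rab5a: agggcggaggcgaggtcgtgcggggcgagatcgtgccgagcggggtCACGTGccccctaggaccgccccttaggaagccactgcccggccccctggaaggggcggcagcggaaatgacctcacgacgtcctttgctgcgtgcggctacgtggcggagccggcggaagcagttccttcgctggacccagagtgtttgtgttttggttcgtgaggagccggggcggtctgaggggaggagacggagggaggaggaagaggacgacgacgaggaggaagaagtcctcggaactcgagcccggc
Rab31: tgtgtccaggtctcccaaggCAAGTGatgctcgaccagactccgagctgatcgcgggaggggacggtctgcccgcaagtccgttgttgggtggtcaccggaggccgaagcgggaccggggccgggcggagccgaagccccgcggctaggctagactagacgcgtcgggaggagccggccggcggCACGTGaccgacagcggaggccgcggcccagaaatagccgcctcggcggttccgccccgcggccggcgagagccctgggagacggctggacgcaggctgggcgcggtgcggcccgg
The windows of Rab15, Rab34 and Rab31 held 2 matches each, and that of Rab5a held 1. RefSeq promoters were matched for 28 of the 34 members; those of Rab1b, Rab2a, Rab2b, Rab22a, Rab23 and Rab38 are not shown. CANNTG was present in 13 of the 28 windows (46.4%), against 72.1% of 33469 rat promoter windows of the same length. CAGCTG, which is a form of CANNTG, was present in 3 of the 28 windows (10.7%), against 15.1% of all windows. These are matches of letters, and no binding was measured. The 28 windows were 1 per gene, whereas the 33469 windows were not reduced to 1 per gene, so the shares compare unlike sets.

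Level varied widely over the family. The mean over the 8 libraries ran from 1.05 CPM for Rab29 to 31.0 CPM for Rab2a, with a median of 4.25 CPM over the 34 members, and the reads behind a member ran from 118 to 3482. These are 3'-end CPM values that are not set per length of transcript, so levels are compared between libraries and not between genes. The ratio of the highest to the lowest library had a median of 2.24 over the members, was smallest for Rab35 at 1.24 and was largest for Rab23 at 8.24. Of the members, 28 were at 1 CPM or more in all 8 libraries, and Rab2b met the rule in exactly 4. All 34 carried the Gene Ontology terms GTP binding and GTPase activity in the deposited annotation, 11 carried recycling endosome, 14 carried phagocytic vesicle and 17 carried Golgi apparatus.

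**Figure D1:**
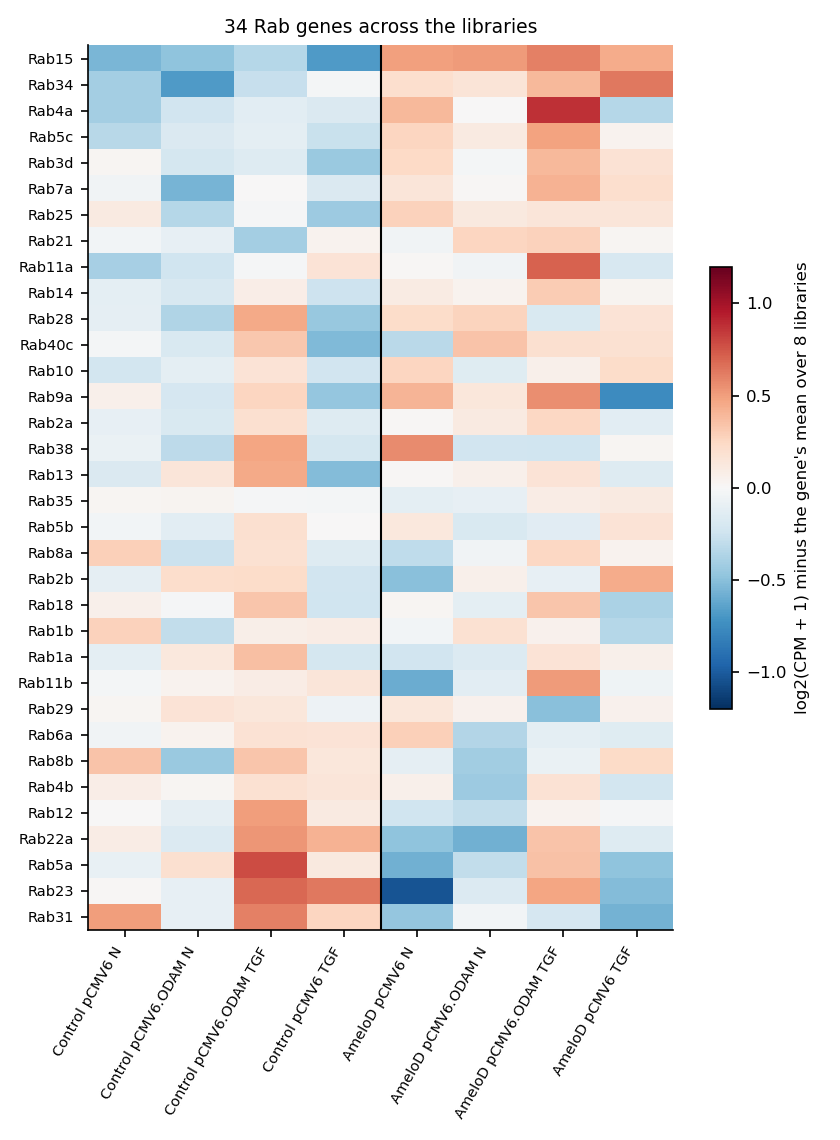
Each row is 1 of the 34 Rab genes and each column 1 of the 8 libraries; colour gives log2(CPM + 1) minus the mean of that gene over the libraries. Rab15 separates the 4 AmeloD from the 4 Control libraries, and Rab22a is lowest in the 2 AmeloD N libraries.

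The first comparison asked how the Rab genes differed between AmeloD-overexpressing and Control cells. Rab15 (by 1.03 on the log2 scale) and Rab34 (by 0.69) were higher in AmeloD cells, whereas 3 Rabs of the early endosome, Rab5a, Rab22a and Rab31, and Rab23, known as a negative regulator of Hedgehog signalling, were lower. The other 28 members did not pass the test, with log2 differences from -0.26 (Rab12) to 0.47 (Rab4a). The test was limma on log2(CPM + 1), with additive terms for genotype, plasmid and TGF, fitted to the 8 libraries, and Benjamini-Hochberg adjustment over 6849 genes at a threshold of 0.05. A pseudocount of 1 CPM understates the change of genes at a few CPM. Of the 34 members, 2 were called higher and 4 lower. Among all tested genes 9.07% were called higher, 4.75% lower and 13.8% in either direction, and the members' share in either direction was 17.6%. The median log2 difference of the members was 0.02, with 17 of 34 above 0, beside 0.05 and 57.0% above 0 for all tested genes. With TMM scaling these medians were -0.04 and -0.0050, so the sign of the members' median depended on the scaling.

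**Figure D2:**
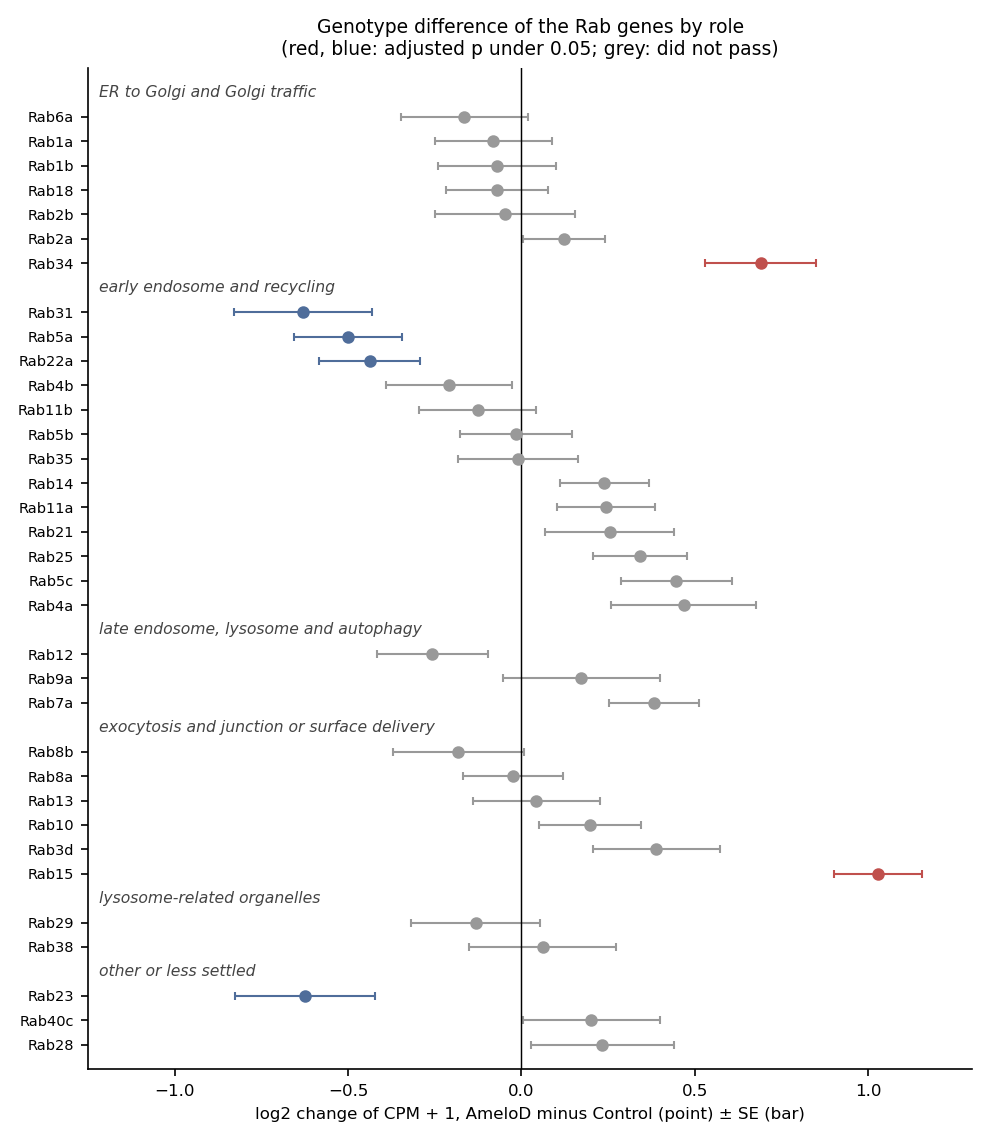
Points give the log2 difference, AmeloD minus Control, of each Rab gene on the log2(CPM + 1) scale with its standard error, grouped by role; red (higher) and blue (lower) points passed the limma test and grey points did not. Rab15 lies at 1.03 and Rab34 at 0.69, while Rab31, Rab23, Rab5a and Rab22a lie between -0.63 and -0.44.

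Among the 6 tested Rabs of exocytosis and surface delivery, 1 was called higher (16.7%, beside 9.07% of all tested genes) and 0 lower. Rab15 (ENSRNOG00000007364, chromosome 6, 95499587 to 95523942 on the minus strand in mRatBN7.2) was placed in this role by the list used here. It is also known from sorting and recycling endosomes. In the deposited annotation Rab15 carried the term endosome membrane, and regulation of exocytosis was not among its terms. Its level in AmeloD was 23.3, 23.7, 25.2 and 22.5 CPM, given here and below first for pCMV6 N, then pCMV6.ODAM N, then pCMV6.ODAM TGF and last pCMV6 TGF. In Control, in the same order, it was 10.8, 11.3, 12.6 and 9.79 CPM. All AmeloD libraries lay far above all Control libraries, and within a genotype the values were close together. The means were 23.7 ± 1.11 (SD, n = 4) and 11.1 ± 1.18 CPM (SD, n = 4), a log2 difference of 1.03 ± 0.13 (SE) with a limma adjusted p of 2.03e-06. Rab15 kept its call without each library in turn, with log2 differences of 0.98 to 1.08, and it passed in the N libraries alone and in the TGF libraries alone. The gene lies wholly within the span of Fntb, a farnesyltransferase subunit gene on the opposite strand, and shares 0 exon bases with it; the strand setting of the counting is not given. Fntb had 179.5 ± 11.2 CPM in AmeloD and 175.2 ± 15.5 CPM in Control (SD, n = 4 each), with a limma adjusted p of 0.845.

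The other 5 Rabs of this role did not pass. Rab8a, which acts in delivery to the apical surface and the cilium, had 14.7, 17.8, 21.9 and 18.9 CPM in AmeloD. Its Control values were 22.5, 15.2, 20.9 and 16.3 CPM, and the genotypes overlapped throughout (log2 difference -0.02 ± 0.14). Rab8b, Rab10 (surface delivery), Rab13 (tight junction traffic) and Rab3d (secretory granules) had log2 differences from -0.18 for Rab8b to 0.39 for Rab3d. Rab3d was higher in AmeloD in all 4 matched pairs, that is in each pair of libraries that differed in genotype alone, with a limma adjusted p of 0.171.

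Of the 7 tested Rabs of endoplasmic reticulum to Golgi and Golgi traffic, 1 was called higher (14.3%, beside 9.07% of all tested genes) and 0 lower. Rab34 (ENSRNOG00000023375, chromosome 10, 63083338 to 63087538), a Golgi Rab with a role in building primary cilia, had 5.11, 4.89, 5.93 and 7.21 CPM in AmeloD. In Control it had 3.0, 2.30, 3.38 and 4.22 CPM. The groups did not overlap, and within each genotype the highest library was the one labelled pCMV6 TGF. The means were 5.78 ± 1.05 and 3.23 ± 0.798 CPM (SD, n = 4 each), a log2 difference of 0.69 ± 0.16 with a limma adjusted p of 0.00425. The call was kept without each library in turn (limma adjusted p 0.0103 to 0.0239), and in the 4 TGF libraries alone the adjusted p was 0.102 at a log2 difference of 0.66.

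The remaining 6 Rabs of this role lay between -0.16 (Rab6a, retrograde Golgi traffic) and 0.12 (Rab2a). Rab2a, which acts between the endoplasmic reticulum and the Golgi, had 31.1, 33.3, 36.9 and 28.2 CPM in AmeloD and 28.7, 27.1, 35.4 and 27.6 CPM in Control. It was higher in AmeloD in all 4 pairs, with a difference of 0.12 ± 0.12 and a limma adjusted p of 0.562. Rab1a was at -0.08, Rab1b and Rab18 at -0.07 and Rab2b at -0.05. A second entry with the symbol Rab1b, with 92 reads on the X chromosome, is not a member; RefSeq lists a Rab1b pseudogene there, so the sharing of reads between these copies is uncertain.

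The early endosome and recycling Rabs, the largest role with 13 tested members, had 3 called lower (23.1%, beside 4.75% of all tested genes) and 0 called higher. Rab15, called higher and also known from endosomes, was counted under exocytosis, so these counts depend on its placement. The median log2 difference of this role was -0.0093, with 6 of 13 above 0, beside 0.05 and 57.0% over all tested genes. The 3 called lower include Rab31, which met the level rule through Control. Rab5a (ENSRNOG00000057056, chromosome 9, 6484469 to 6512873), which drives early endosome fusion, had 4.16, 5.27, 8.85 and 4.53 CPM in AmeloD. In Control it had 6.26, 7.79, 12.2 and 7.37 CPM. Each AmeloD library was below its matched Control library, but the groups overlapped because the AmeloD pCMV6.ODAM TGF library was high. The means were 5.70 ± 2.15 and 8.41 ± 2.62 CPM (SD, n = 4 each), a log2 difference of -0.50 ± 0.15 with a limma adjusted p of 0.0310. Rab5a overlaps 217 exon bases of Pp2d1 on the opposite strand, a gene with 4 reads in all. Its call was lost without any 1 of 5 libraries (AmeloD pCMV6.ODAM N, AmeloD pCMV6 TGF, Control pCMV6 N, Control pCMV6.ODAM TGF and Control pCMV6 TGF). The limma adjusted p over the 8 such fits was 0.0258 to 0.127 and the log2 difference -0.58 to -0.42.

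Rab22a (ENSRNOG00000005762, chromosome 3, 162459726 to 162506137) acts on early endosomes and in the recycling of cargo taken up without clathrin. It had 7.29, 6.75, 13.7 and 9.42 CPM in AmeloD and 11.3, 9.35, 15.7 and 14.5 CPM in Control. It too was lower in AmeloD in all 4 pairs with overlapping groups. The means were 9.28 ± 3.15 and 12.7 ± 2.92 CPM (SD, n = 4 each), a log2 difference of -0.44 ± 0.15 with a limma adjusted p of 0.0464. The call was kept only without the AmeloD pCMV6.ODAM TGF library; without any 1 of the other 7 it was lost, with an adjusted p of up to 0.197, and it was 0.0516 with a genotype by TGF term.

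Rab31 (ENSRNOG00000042189, chromosome 9, 105246709 to 105381253), a close relative of Rab22a that works between the trans-Golgi network and endosomes, rested on few reads. It had 0.568, 1.11, 0.878 and 0.462 CPM in AmeloD, 38 reads in all, and 2.07, 1.02, 2.27 and 1.58 CPM in Control, 111 reads in all. It was lower in AmeloD in 3 of the 4 pairs and slightly higher in the pCMV6.ODAM N pair. The means were 0.755 ± 0.297 and 1.73 ± 0.561 CPM (SD, n = 4 each), and the log2 difference was -0.63 ± 0.20 with a limma adjusted p of 0.0349. On recovered reads the log2 difference was -1.24 with edgeR (adjusted p = 0.0266) and -1.28 with DESeq2, where the call was lost (adjusted p = 0.0591). In limma it was also lost without any 1 library other than AmeloD pCMV6.ODAM N and Control pCMV6.ODAM N, with an adjusted p of up to 0.168.

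The 10 other members of this role lay between -0.21 (Rab4b) and 0.47 (Rab4a), the 2 forms of the fast recycling Rab. Rab4a had 3.88, 2.74, 5.85 and 1.94 CPM in AmeloD against 1.82, 2.17, 2.40 and 2.31 CPM in Control, and its groups overlapped (limma adjusted p = 0.144). Without the AmeloD pCMV6 TGF library Rab4a passed, with an adjusted p of 0.0195. Rab25, an epithelial recycling Rab, had 23.8, 21.2, 21.6 and 21.6 CPM in AmeloD and 21.0, 15.1, 19.2 and 14.1 CPM in Control. The Rab25 groups did not overlap, though by a narrow margin, and the log2 difference was 0.34 ± 0.14 with a limma adjusted p of 0.0955. It passed without the Control pCMV6.ODAM TGF library (adjusted p = 0.0349). Rab11a, the general recycling Rab, had 26.2, 25.3, 43.0 and 22.6 CPM in AmeloD and 19.5, 21.9, 25.8 and 29.1 CPM in Control. Its AmeloD pCMV6.ODAM TGF library stood above all others, and the groups overlapped (0.24 ± 0.14, adjusted p = 0.284 in limma); it passed without the AmeloD pCMV6 TGF library (0.0417). Rab11b, Rab14 and Rab35 had log2 differences of -0.13, 0.24 and -0.01, and that of Rab21, a regulator of integrin uptake, was 0.25.

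**Figure D3:**
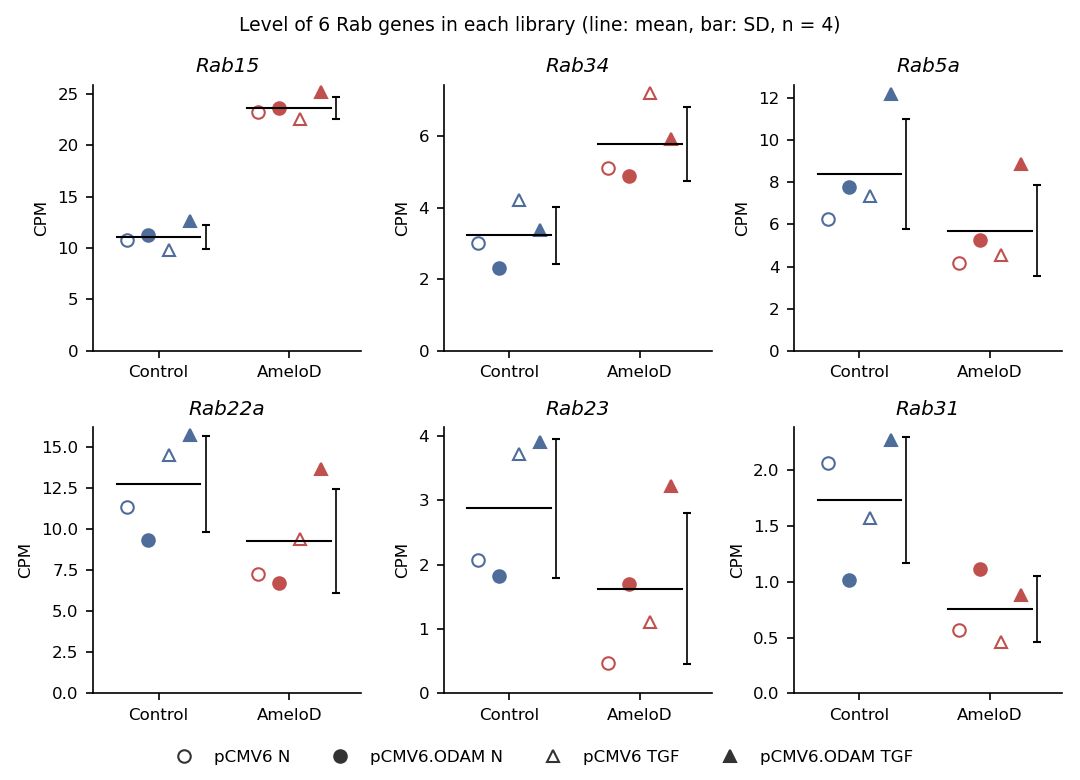
CPM of the 6 Rab genes past the limma genotype test in each of the 8 libraries, with the mean (line) and SD (bar) of the 4 libraries of a genotype; triangles are TGF, circles N, filled symbols pCMV6.ODAM and open symbols pCMV6. Rab15 and Rab34 do not overlap between genotypes, whereas Rab5a, Rab22a, Rab23 and Rab31 overlap and are highest in the Control pCMV6.ODAM TGF library.

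Of the 3 late endosome Rabs 0 passed. Rab7a (ENSRNOG00000012247), which carries late endosomes to fusion with lysosomes, came closest. It had 25.5, 23.2, 30.9 and 26.5 CPM in AmeloD and 22.3, 15.3, 23.1 and 20.3 CPM in Control, so that the lowest AmeloD library was just above the highest Control library. Its log2 difference was 0.38 ± 0.13 with a limma adjusted p of 0.0527. The adjusted p was 0.0449 without AmeloD pCMV6 TGF, 0.0232 without Control pCMV6 N, 0.0429 without Control pCMV6.ODAM TGF and 0.0253 with the matched pairs as a block, a fit chosen after seeing the data. Rab9a, which returns receptors from late endosomes to the Golgi, was at 0.17, and Rab12 at -0.26 and lower in all 4 pairs.

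Among the 3 tested Rabs with other or less settled roles, 1 was called lower (33.3%, beside 4.75% of all tested genes) and 0 higher. The called member was Rab23 (ENSRNOG00000012629, chromosome 9, 35944085 to 35966927). It had 0.473, 1.71, 3.22 and 1.11 CPM in AmeloD and 2.07, 1.83, 3.90 and 3.71 CPM in Control, from 84 and 186 reads. Every AmeloD library was below its matched Control library, by little in the pCMV6.ODAM pairs and by more in the pCMV6 pairs. The means were 1.63 ± 1.17 and 2.88 ± 1.08 CPM (SD, n = 4 each), a log2 difference of -0.62 ± 0.20 with a limma adjusted p of 0.0394. On recovered reads the log2 difference was -0.95 with edgeR (adjusted p = 0.0446) and -1.01 with DESeq2, where the call was lost (adjusted p = 0.0637). In limma it was lost without AmeloD pCMV6 N, AmeloD pCMV6 TGF, Control pCMV6 N or Control pCMV6 TGF, with an adjusted p of up to 0.174. Rab28, known from cilia of photoreceptors, had 2.84, 2.97, 1.90 and 2.68 CPM in AmeloD and 2.07, 1.56, 3.51 and 1.41 CPM in Control and overlapped between genotypes (0.23 ± 0.21). Rab40c was at 0.20.

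Both tested Rabs of lysosome-related organelles overlapped between genotypes. Rab38, which serves melanosomes and related organelles, had 4.07, 1.93, 1.90 and 2.49 CPM in AmeloD and 2.25, 1.76, 3.77 and 1.97 CPM in Control (0.06 ± 0.21). Rab29 lay at -0.13. The melanocyte markers Mlana, Tyr and Dct were at 0 reads, and the 5 melanocyte markers together had 36 reads.

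Counting libraries rather than the test, 5 members (14.7%) had 4 AmeloD values that did not overlap the 4 Control values, all of them higher in AmeloD: Rab15, Rab34, Rab5c, Rab7a and Rab25. The same held for 15.0% of all tested genes in either direction, 9.49% higher and 5.53% lower. None of the 4 members called lower reached this separation. The scaling of the libraries bears on the balance over all genes: of all genotype calls 65.6% were higher with the deposited CPM, 52.5% with TMM scaling and 49.0% with the libraries set to the same median. The members' count of 2 higher and 4 lower was identical under these scalings and with edgeR on recovered reads. With DESeq2 it was 2 higher and 2 lower, and lower calls numbered 0 to 3 with each library left out in turn. Over all genes lower calls numbered 325 in the main fit, 363 with DESeq2 and 219 to 295 with each library left out.

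Rab5a has the close relatives Rab5b and Rab5c, neither of which passed. Rab5c had 6.34, 5.64, 7.61 and 5.36 CPM in AmeloD and 3.88, 4.47, 4.68 and 4.11 CPM in Control. The Rab5c groups did not overlap, with means of 6.24 ± 1.0 and 4.28 ± 0.358 CPM (SD, n = 4 each), a log2 difference of 0.45 ± 0.16 and a limma adjusted p of 0.0644. Rab5b had 5.30, 4.08, 4.24 and 5.45 CPM in AmeloD and 4.63, 4.27, 5.59 and 4.78 CPM in Control, with overlapping groups and a difference of -0.02 ± 0.16. The reads were then viewed as shares of the Rab5 total, a view chosen after the values were seen and given without a test. Rab5c held 40.1%, 37.6%, 36.7% and 34.9% of Rab5 reads in AmeloD and 26.3%, 27.0%, 20.8% and 25.3% in Control. The exact 95% binomial intervals, which cover counting error only, ran from 27.7% to 48.0% over the AmeloD libraries and from 16.7% to 33.1% over the Control libraries. Rab5a held 26.3%, 35.1%, 42.8% and 29.5% in AmeloD and 42.4%, 47.1%, 54.3% and 45.3% in Control. The Rab5c shares did not overlap between genotypes and the Rab5a shares overlapped narrowly, while the summed Rab5 level was 15.0 to 20.7 CPM in AmeloD and 14.8 to 22.5 CPM in Control.

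**Figure D4:**
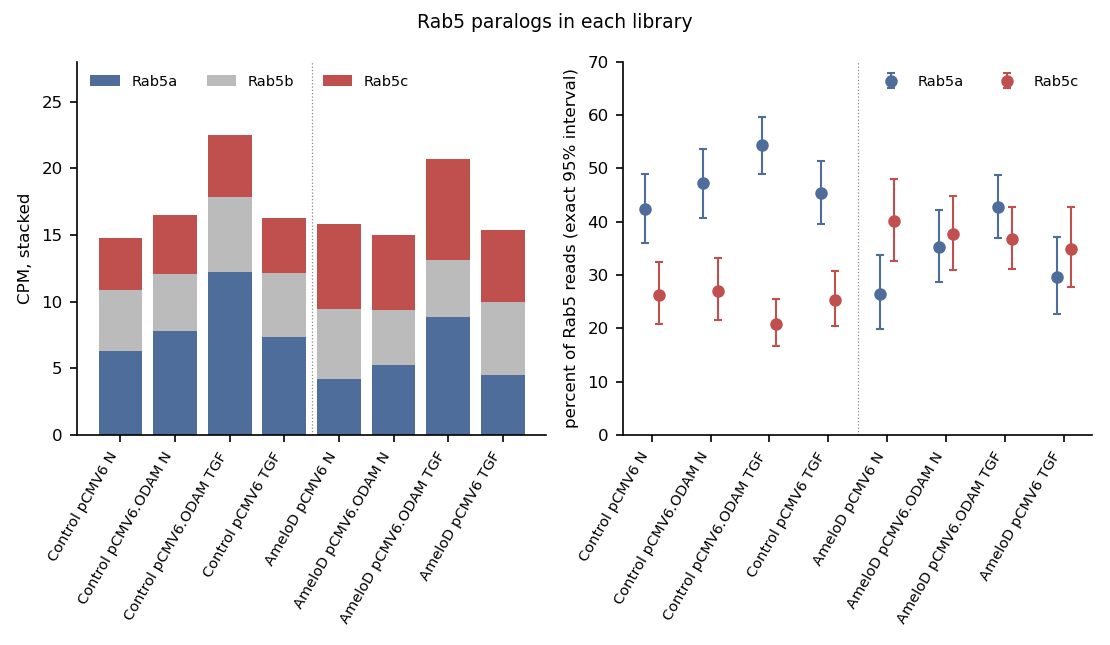
Left, stacked bars give the CPM of Rab5a, Rab5b and Rab5c in each library; right, the shares of Rab5 reads held by Rab5a and Rab5c with exact 95% binomial intervals. Rab5c held 34.9% to 40.1% of Rab5 reads in AmeloD and 20.8% to 27.0% in Control.

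Summed over the 34 members, Rab reads came to 270.2, 262.9, 334.8 and 263.6 CPM in AmeloD and 248.7, 222.3, 294.5 and 239.7 CPM in Control. The sum was higher in AmeloD in each of the 4 pairs, and the groups overlapped. Without Rab15 it was 239.2 to 309.6 CPM in AmeloD and 211.0 to 281.9 CPM in Control. In both genotypes the pCMV6.ODAM TGF library had the highest sum, and of the 34 members 12 had their highest level in that AmeloD library and 10 in that Control library. The same libraries had the highest shares of their reads in the deposited table, 17.2% and 17.5% against 15.6% to 16.7% in the other 6, and the highest TMM factors, 1.08 and 1.07. The part of this in the Rab sums was not tested.

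The second comparison set the TGF libraries against the N libraries. Rab22a was the only member that passed, higher with TGF, and the other 33 lay between -0.20 (Rab9a) and 0.64 (Rab23). Rab22a rose from 7.29 to 9.42 CPM in AmeloD pCMV6, from 6.75 to 13.7 in AmeloD pCMV6.ODAM, from 11.3 to 14.5 in Control pCMV6 and from 9.35 to 15.7 CPM in Control pCMV6.ODAM. The rise was seen in all 4 pairs, although the TGF and N groups overlapped. The means were 13.3 ± 2.74 CPM with TGF and 8.68 ± 2.09 CPM with N (SD, n = 4 each), a log2 difference of 0.57 ± 0.15 with a limma adjusted p of 0.0398. Among all tested genes 1.53% were called higher, 0.277% lower and 1.81% in either direction; 1 of 34 members is 2.94%. The call was lost with the libraries set to the same median (limma adjusted p = 0.0514), with edgeR (0.0523) and with DESeq2 (0.0583). It was also lost in limma without any 1 library other than AmeloD pCMV6 TGF and Control pCMV6 N, with an adjusted p of up to 0.230.

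Rab23 had the largest TGF difference of the members, 0.64 ± 0.20, and was higher with TGF in all 4 pairs (limma adjusted p = 0.125). Its mean was 2.98 ± 1.28 CPM with TGF and 1.52 ± 0.713 CPM with N (SD, n = 4 each). Rab5a followed a like pattern, at 8.24 ± 3.20 and 5.87 ± 1.54 CPM (0.39 ± 0.15, limma adjusted p = 0.277). Rab5a, Rab22a and Rab23, called lower by genotype and lower in AmeloD in all 4 pairs, were each higher with TGF in all 4 pairs. Only Rab22a passed the TGF test. Rab31 did not share this, being higher with TGF in 1 of 4 pairs. Rab15 stood at 17.5 ± 7.47 CPM with TGF and 17.3 ± 7.18 CPM with N (0.02 ± 0.13), so its spread within each group was that between the genotypes. In all, 7 members were higher with TGF in 4 of 4 pairs and 1, Rab29, was lower in 4 of 4. The share of all tested genes that were 4 of 4 was not counted, so no pattern particular to the Rab genes can be read from this.

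The median TGF difference of the members was 0.09, with 26 of 34 above 0, beside 0.04 and 58.2% above 0 over all genes tested. The pairs differed by plasmid label. With pCMV6.ODAM the members' median was 0.24 in AmeloD (27 of 34 higher with TGF) and 0.33 in Control (31 of 34). Over all genes the medians were 0.09 and 0.15, with 58.33% and 67.1% of genes higher with TGF. With pCMV6 the members' median was -0.05 in AmeloD (15 of 34) and -0.09 in Control (13 of 34). Over all genes it was -0.02 and -0.06, with 48.58% and 42.02% of genes higher. The split by plasmid label thus had the same direction over all genes.

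**Figure D5:**
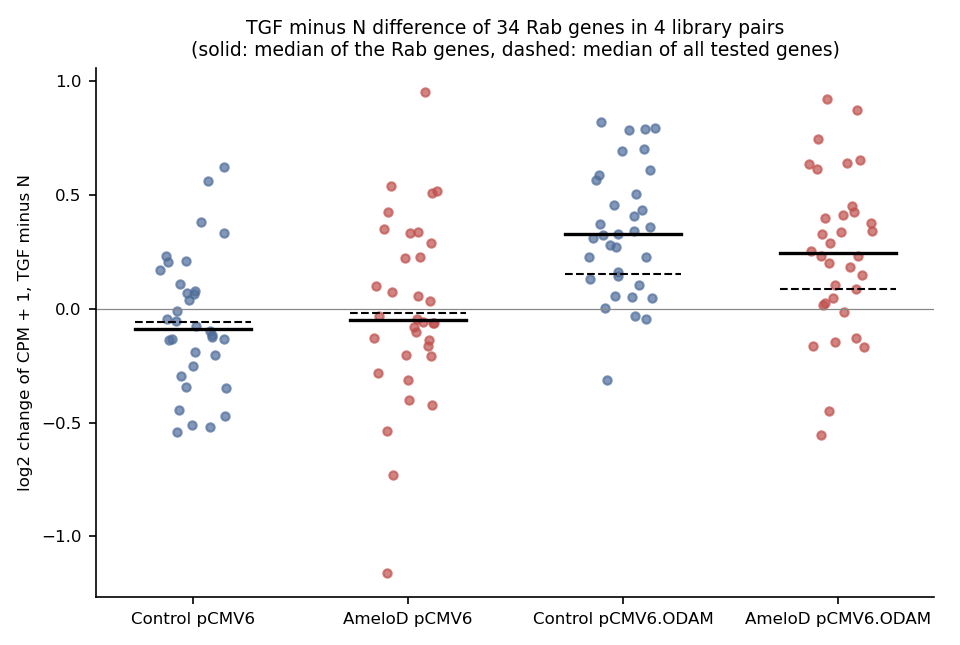
Each point is 1 Rab gene in 1 of the 4 pairs of libraries that differ in the TGF label alone; the y axis gives the log2(CPM + 1) difference, TGF minus N, with solid lines at the median of the Rab genes and dashed lines at that of all tested genes. The Rab medians are 0.24 and 0.33 in the pCMV6.ODAM pairs and -0.05 and -0.09 in the pCMV6 pairs.

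Whether the TGF difference depended on the plasmid label was tested as an interaction. No member passed, and 0 of all 6849 genes were called (0%). By limma 4 members had an unadjusted p under 0.05; by edgeR there were 2 and by DESeq2 1, with 0 after adjustment in each. The members' median interaction was 0.36, with 28 of 34 above 0, beside 0.16 and 68.6% above 0 over all genes. Both medians moved with the scaling. With TMM they were 0.16 for the members and 0.00041 over all genes, and with the same median per library 0.20 and 0.00058. Lowest in unadjusted p was Rab9a, with an interaction of 1.28 ± 0.37 (limma adjusted p = 0.578). Rab9a had 2.27 CPM with N and 0.462 with TGF in AmeloD pCMV6, and 1.71 and 2.63 CPM in AmeloD pCMV6.ODAM. In Control it had 1.56 and 0.788 CPM with pCMV6 and 1.15 and 1.95 CPM with pCMV6.ODAM, so TGF went with a lower level under pCMV6 and a higher one under pCMV6.ODAM in both genotypes, at 88 and 86 reads in all. It shares 563 exon bases with Tceanc on the same strand, a gene with 27 reads.

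The plasmid comparison itself, pCMV6.ODAM minus pCMV6, called 0 members and 0 of all genes (0%) in limma. Unadjusted p was under 0.05 for 3 members in limma (Rab5a, Rab13 and Rab23), 2 in edgeR and 1 in DESeq2. Over all 6849 genes these unadjusted counts were 454, 463 and 235. No member passed after adjustment in edgeR or DESeq2. Differences ran from -0.30 (Rab8b) to 0.51 (Rab5a), and Rab5a was higher with pCMV6.ODAM in all 4 pairs. The genotype by TGF interaction also called 0 members, with 0.0146% of all genes called. In limma, edgeR and DESeq2, 0 members had an unadjusted p under 0.05, beside 282, 345 and 111 of all genes. The genotype by plasmid interaction called 0 members and 0 of all genes (0%). Unadjusted p was under 0.05 for 1 member in limma, 2 in edgeR and 1 in DESeq2, beside 308, 353 and 137 of all genes.

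The regulators of the Rab cycle were followed with 4 lists of other genes. Of 9 tested factors of prenylation and membrane recycling 1 was called higher in AmeloD (11.1%, beside 9.07% of all tested genes) and 0 lower. It was Rabac1, which takes prenylated Rabs off their carrier, at 6.43, 6.08, 12.6 and 9.61 CPM in AmeloD and 3.32, 4.20, 9.03 and 5.63 CPM in Control. Each AmeloD library exceeded its match (0.59 ± 0.15, limma adjusted p = 0.0111), and the call was lost without AmeloD pCMV6 N or Control pCMV6 TGF (adjusted p up to 0.0755). It passed neither in the N libraries alone (0.62, limma adjusted p = 0.0644) nor in the TGF libraries alone (0.56, 0.136). Rabac1 was also higher with TGF in all 4 pairs (0.75 ± 0.15, limma adjusted p = 0.00718), a call lost without AmeloD pCMV6.ODAM N (0.0703). Of the 9 factors, 1 was called higher with TGF (11.1%, beside 1.53% of all tested genes) and 0 lower. Gdi2, a carrier that holds GDP-bound Rabs in the cytosol, was at 5.07 ± 0.852 CPM in AmeloD and 5.01 ± 0.554 CPM in Control (SD, n = 4 each).

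Of 27 tested GEFs 2 were called higher in AmeloD (7.41%, beside 9.07% of all tested genes) and 0 lower. Rin2, a GEF for Rab5, was at 6.0 ± 2.23 CPM against 3.09 ± 0.657 CPM in Control (SD, n = 4 each; 0.73 ± 0.17, limma adjusted p = 0.00451). Dennd2d, a DENN-domain GEF, was at 2.59 ± 0.589 against 1.17 ± 0.514 CPM (0.74 ± 0.20, limma adjusted p = 0.0148). Rin2 kept its call without each library in turn, and fits of N or of TGF libraries alone gave 0.53 (limma adjusted p = 0.180) and 0.93 (0.00575). Dennd2d lost it without AmeloD pCMV6 N, AmeloD pCMV6.ODAM TGF, AmeloD pCMV6 TGF or Control pCMV6 TGF (adjusted p up to 0.122), and it was at 0.42 with N alone (0.369) and 1.07 with TGF alone (0.00567). A call with N or TGF alone does not show a difference between them; the genotype by TGF interaction had a limma adjusted p of 0.999 for each of Rin2 and Dennd2d.

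Of 12 tested GAPs 2 were called higher (16.7%, beside 9.07% of all tested genes) and 0 lower. The median was 0.35 with 11 of 12 above 0, beside 0.05 and 57.0% over all tested genes. It was 0.29 with 10 of 12 above 0 after TMM scaling and 0.27 with 9 of 12 above 0 with the same median per library, and with edgeR or DESeq2 1 GAP was called higher. Usp6nl, a GAP that acts on Rab5, was at 3.60, 3.26, 5.78 and 3.23 CPM in AmeloD and 1.06, 1.76, 1.69 and 1.01 CPM in Control. The groups were far apart (1.05 ± 0.19, limma adjusted p = 0.000288), and the call was kept without each library in turn. Rabgap1l was higher in AmeloD (0.60 ± 0.18, limma adjusted p = 0.0245) and lower with TGF (-0.93 ± 0.18, adjusted p = 0.00360), at 3.03 ± 0.940 CPM with TGF and 6.84 ± 2.73 CPM with N (SD, n = 4 each). Its genotype call was lost with edgeR (0.0506), with DESeq2 (0.0993) and in limma without any 1 library other than AmeloD pCMV6 TGF, Control pCMV6.ODAM N and Control pCMV6 TGF (adjusted p up to 0.145), and was kept with N alone (0.81, 0.00320) and not with TGF alone (0.39, 0.499). Its TGF call was kept without each library in turn. Of the 12 GAPs, 1 was called lower with TGF (8.33%, beside 0.277% of all tested genes) and 0 higher.

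Of 37 tested effectors and tethers 4 were called higher (10.8%, beside 9.07% of all tested genes) and 1 lower (2.7%, beside 4.75%). Micall2, an effector of Rab13 and Rab8 at junctions, was at 6.81 ± 1.07 CPM in AmeloD and 3.49 ± 0.305 CPM in Control (SD, n = 4 each; 0.79 ± 0.16, limma adjusted p = 0.00149). Vps33a, a subunit of endosomal tethers, was at 2.20 ± 0.514 and 0.851 ± 0.281 CPM (0.79 ± 0.18, limma adjusted p = 0.00435), and Rab11fip1, an effector of Rab11, at 5.32 ± 0.766 and 3.07 ± 0.815 CPM (0.65 ± 0.18, adjusted p = 0.0176). With a Control mean under 1 CPM, Vps33a could enter the tested set through the AmeloD libraries alone, which limits its call. Micall2 and Vps33a kept their calls without each library in turn, and Rab11fip1 lost its call without AmeloD pCMV6 N, AmeloD pCMV6.ODAM TGF, Control pCMV6.ODAM N or Control pCMV6 TGF (up to 0.136). With N alone Vps33a was at 0.67 (limma adjusted p = 0.0891) and Rab11fip1 at 0.50 (0.187), and with TGF alone at 0.90 (0.0326) and 0.80 (0.0398). The other 2 calls, named here after their values were seen, were Ehd1 (0.54, limma adjusted p = 0.0302) and Ehbp1l1 (-0.56, adjusted p = 0.0341). Ehd1, which works in endocytic recycling, lost its call without any 1 of the 4 N libraries (up to 0.162), with the same median per library (0.0511) and with DESeq2 (0.0986), and was at 0.82 with N alone (0.00591) and 0.26 with TGF alone (0.676). Ehbp1l1 lost its call without any 1 of the 4 N libraries or without Control pCMV6.ODAM TGF (up to 0.163), and was at -0.82 with N alone (0.0124) and -0.29 with TGF alone (0.624). With TGF 1 effector was called higher, Rbsn, an effector of Rab5 and Rab4, also named after its value was seen, at 2.64 ± 0.578 against 1.14 ± 0.498 CPM (0.78 ± 0.19, limma adjusted p = 0.0245). The Rbsn call was lost with edgeR (0.0588), with DESeq2 (0.0892) and without any 1 library other than AmeloD pCMV6.ODAM TGF and Control pCMV6.ODAM N (up to 0.144).

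Of the 24 Rab entries that were not members, Rab3b, Rab3c, Rab36 and Rab39a had 0 reads in all 8 libraries, 11 had 1 to 20 reads and 9 had more than 20. Since a count of 0 is compatible with at most 3 reads, their level may reach 0.169 CPM in the deepest library and 0.284 CPM in the shallowest. Just inside the rule, Rab2b had 0.473, 1.19, 0.951 and 1.85 CPM in AmeloD and 0.939, 1.42, 1.43 and 0.788 CPM in Control. Just outside it, Rab32, a Rab of lysosome-related organelles, reached 1 CPM in 3 libraries, with 0.568, 0.297, 0.878 and 0.0924 CPM in AmeloD and 2.50, 1.02, 1.04 and 0.788 CPM in Control. That is 23 reads in AmeloD and 85 in Control. Rab40b had 39 reads in AmeloD and 13 in Control, most of them in the N libraries of AmeloD at 1.32 and 1.56 CPM.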

How the data were processed

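Messenger RNA of 8 SF2 libraries was measured with a 3'-end kit and paired reads of 150 bases. Per the labels' protocols, reads were trimmed, aligned to mRatBN7.2 and counted per gene; per the submitters' processing notes, alignment used STAR 2.7.10a, counting featureCounts 2.0.1 and trimming cutadapt 3.7, Trimmomatic 0.39 and Trim Galore 0.6.7. The use of molecular identifiers, the strand setting and the handling of multiply mapped reads are not stated. As the measurement, the authors deposited CPM per gene and library, relative to a library total of which the table held 15.6% to 17.5%. All values were whole multiples of 1 read (100% whole within a tolerance of 0.01), so reads were recovered for added count tests. Of the 30240 entries 4319 had no symbol.

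Differences were tested with limma 3.58.1 under R 4.3.3 (eBayes with trend, two-sided) on log2(CPM + 1) with additive genotype, plasmid and TGF terms over 8 libraries, leaving 4 residual degrees of freedom, or 3 with an interaction. Since no combination was replicated, the residual holds the interactions as well as the spread. The 6849 genes that reached 1 CPM in 4 or more libraries were tested. A gene could enter this set through a single level of a label. The test step was also run on simulated counts, drawn with the same dispersion for all genes and without interactions. That setting differs from these libraries, so the run does not measure error rates here. Alternatives were a pseudocount of 0.5 CPM, genes at 1 CPM in at least 1 library, TMM scaling, a common median, edgeR 4.0.16 and DESeq2 1.42.0 on recovered reads, a genotype by TGF term, N or TGF libraries alone, leaving out each library and, chosen after seeing the data, the matched pairs as a block.

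The members and gene lists were chosen with earlier results of these data known. Values per library were given for members past a test, for the member with the highest mean CPM of each role, and for relatives of the same number; of each list of other pathway genes, up to 3 past the genotype test were named. Rab7a and Rab28 had the highest mean CPM of their roles. Rab4a, Rab9a, Rab25, Rab32 and Rab40b, and Gdi2, were described after their values were seen.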

Additional observations from a re-analysis of the deposited data

Results flagged for a closer look

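In the AmeloD libraries, 1 value each of Rab25 and Rab29 lay far from the other 3. Rab25 had 23.8 CPM in AmeloD pCMV6 N, against 21.2 to 21.6 CPM in the other AmeloD libraries. Rab29, a Rab linked to lysosomes, had 0.439 CPM in AmeloD pCMV6.ODAM TGF, against 1.11 to 1.23 CPM in the others. In each case the gap to the nearest library, divided by the range of the group, was above Dixon's 95% limit. Chance alone gives about 1 such value in 20 groups, and 68 groups of 4 libraries were examined, so 2 is no excess.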

How the results depend on the processing

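The members called by genotype numbered 2 higher and 4 lower. Those counts were within 1.5 times of this with a pseudocount of 0.5 CPM, the wider set of genes, TMM scaling, a common median, edgeR and a genotype by TGF term. Higher calls numbered 2 to 5 when each library was left out in turn and 1 in the TGF libraries alone. Over all genes they numbered 401 to 661 and 295, beside 621 in the main fit. Lower calls numbered 2 with DESeq2, 0 to 3 with each library left out, 0 in the N libraries alone and 0 in the TGF libraries alone, where fewer libraries were fitted. Over all genes lower calls numbered 363, 219 to 295, 260 and 142 in these fits, beside 325 in the main fit. For TGF, the 1 higher call became 0 with a common median, 0 with edgeR and 0 with DESeq2, and 0 or 1 with each library left out. Over all genes higher TGF calls numbered 83, 79, 75 and 58 to 88 in these fits, beside 105 in the main fit. The cause was not tested. No direction of a called gene reversed in the alternatives run. DESeq2 gave no adjusted TGF p for 3 members.

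The members rest on 118 to 3482 reads each, and counts of a few reads per library limit Rab23, Rab31 and Rab29. The labels carry no replicate numbers. Chosen after seeing the data, a block of the 4 matched pairs, libraries that differ in the tested label alone, called 3 members higher and 4 lower by genotype, 1 higher by TGF and 0 by plasmid. Rab7a was the added call. Over all genes the block called 679 higher and 356 lower by genotype, and 104 higher by TGF.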
